A study of Mus musculus with 8 samples.

Results

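The NF-κB family was described in primary mouse keratinocytes through 10 genes, taken by symbol from a table of 19457 genes. They are the 5 Rel/NF-κB subunit genes (Rela, Relb, Rel, Nfkb1 and Nfkb2) and 5 genes of IκB-type inhibitors or cofactors (Nfkbia, Nfkbib, Nfkbie, Nfkbiz and Bcl3). All 10 had a row, and all 10 reached the minimum mean level for testing. The cells were keratinocytes cultured from mouse skin and collected before confluence, in 4 libraries labelled WT and 4 labelled HdR. HdR mice carry HOIL1 ΔRING1, an altered HOIL-1L protein without its first RING domain. HOIL-1L, encoded by Rbck1, belongs to the complex that builds linear ubiquitin chains on proteins of the TNF receptor pathway. The labels name no added agent, and the strain, the age, the zygosity of the allele and whether it is present in all tissues are not given in the sources used here. The labels do not tie libraries to animals or culture dishes, so the p-values measure the spread between these libraries, which may be technical.

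In a resting cell, dimers of Rel/NF-κB subunits are held in the cytoplasm by IκB proteins. Signals from TNF receptors and other receptors activate the IKK kinases, which phosphorylate the IκBs and mark them for ubiquitination and destruction, and the freed dimers move to the nucleus and switch on target genes. Several family genes are themselves targets, so the pathway feeds back on its own components. Nfkbiz and Bcl3 encode nuclear IκB-type proteins that act as cofactors on DNA-bound dimers, and the Nfkbiz product IκBζ is best known in keratinocytes for its part in responses to IL-17 and in psoriasis.

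Because several family genes are known NF-κB targets, promoters were searched for the κB consensus, and 1 window each is printed for 4 members, taken by the number of match positions in their best window and then by the p of their difference. RefSeq promoter windows (GRCm38.p6, 250 bases before to 50 after a start site) were found for 7 of the 10 members, Rela, Rel, Nfkb2, Nfkbia, Nfkbib, Nfkbie and Bcl3, and not for Relb, Nfkb1 and Nfkbiz. The κB consensus was searched on both strands, and overlapping matches were kept. It was present in 7 of the 9 windows of these members, from 5 genes, since Nfkb2 has 3 windows, and a match is shared where windows overlap. Of all 32544 windows of the same length, 8.49% held a match and 1.23% held at least 2 match positions. A match describes letters and is not shown to be a bound site. Each window runs 5′ to 3′ on the strand of the gene, with the matches in capitals. They lie at chr19:46304487-46304786, plus strand, for Nfkb2, at chr11:23770920-23771219, minus strand, for Rel, at chr12:55492598-55492897, minus strand, for Nfkbia, and at chr7:19822706-19823005, minus strand, for Bcl3.
Nfkb2: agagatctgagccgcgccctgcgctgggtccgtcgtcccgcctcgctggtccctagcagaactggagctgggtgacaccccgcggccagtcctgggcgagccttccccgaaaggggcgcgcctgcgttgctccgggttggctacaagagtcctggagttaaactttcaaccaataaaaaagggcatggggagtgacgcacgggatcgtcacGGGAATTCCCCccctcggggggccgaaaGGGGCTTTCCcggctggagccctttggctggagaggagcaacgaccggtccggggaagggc
Rel: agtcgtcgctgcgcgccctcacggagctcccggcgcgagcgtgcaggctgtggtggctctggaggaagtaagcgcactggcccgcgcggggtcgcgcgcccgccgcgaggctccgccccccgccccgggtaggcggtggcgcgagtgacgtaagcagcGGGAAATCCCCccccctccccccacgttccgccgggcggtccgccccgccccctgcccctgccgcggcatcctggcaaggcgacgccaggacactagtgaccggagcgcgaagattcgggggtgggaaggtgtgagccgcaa
Nfkbia: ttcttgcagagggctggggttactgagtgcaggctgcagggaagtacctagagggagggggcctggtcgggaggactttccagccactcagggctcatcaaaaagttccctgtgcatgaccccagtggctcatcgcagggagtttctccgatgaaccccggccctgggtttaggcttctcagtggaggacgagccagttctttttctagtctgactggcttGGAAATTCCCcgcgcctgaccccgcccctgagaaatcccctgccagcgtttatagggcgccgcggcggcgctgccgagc
Bcl3: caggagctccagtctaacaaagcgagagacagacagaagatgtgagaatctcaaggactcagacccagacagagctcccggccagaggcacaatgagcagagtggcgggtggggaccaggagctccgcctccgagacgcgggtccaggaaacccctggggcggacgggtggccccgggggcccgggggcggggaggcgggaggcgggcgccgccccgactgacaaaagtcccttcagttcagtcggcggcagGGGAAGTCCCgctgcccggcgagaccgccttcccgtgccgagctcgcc

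In this Nfkb2 window, GGGAATTCCC begins 39 bases before the start site, reads the same on both strands and overlaps GGAATTCCCC by all but a base. A further match, GGGGCTTTCC, begins 11 bases before the start. In Rel the overlapping matches GGGAAATCCC and GGAAATCCCC begin 92 and 91 bases before it. In Nfkbia GGAAATTCCC begins 29 bases before it, and in Bcl3 GGGAAGTCCC begins at base 3 of the transcript. The Nfkbie window held GGGGGATTCC, 106 bases before its start. The windows of Rela and Nfkbib held no match, which says only that these letters are not in those windows.

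Levels are given as aligned bases per megabase of library after depth scaling (aligned bases per Mb). The deposited values are sums of aligned bases over a gene, so they compare a gene between libraries, and different genes only after division by length. Differences are HdR minus WT on the scale log2(level + 1), with limma's adjusted p over 11870 tested genes. The WT libraries held 4.78 to 5.43 Gb of aligned bases and the HdR libraries 2.31 to 4.31 Gb, so every HdR library was shallower and depth cannot be told apart from genotype. Rbck1 itself, the altered gene, lay at 84.4 to 91.3 in WT and at 41.1 to 45.2 in HdR. This sum covers the whole gene and does not show which part is missing. The keratin genes Krt5 and Krt14, which define basal keratinocytes, were at 17283 ± 840 and 17470 ± 1426 in WT and at 18585 ± 304 and 17021 ± 216 in HdR (SD, n = 4). Krt5 was higher in HdR (log2 fold change 0.11, limma adjusted p = 0.0208), and Krt14 was not called (adjusted p = 0.581). Of the 10 keratinocyte markers, Itga6 (0.28) and Itgb4 (0.43) were also higher, and 5 in all were not called. The suprabasal keratin genes Krt1 and Krt10 were lower in HdR (log2 fold changes of -1.40 and -2.05). Over all tested genes 21.4% were higher and 23.6% lower. Of 10 leukocyte markers with a row, Cd207, Lyz2 and Adgre1 were at 0 in all 8 libraries, Ptprc was at 0 in 7, and only Itgam reached the minimum level. The summed level of the leukocyte list was 4.50 to 7.06 in WT and 3.42 to 4.90 in HdR. Of 7 melanocyte markers 6 were tested and 5 were lower in HdR, with a summed level of 50.3 to 57.7 in WT and 26.2 to 28.7 in HdR. Fibroblast and endothelial markers summed to 0.623 to 1.36 in WT and 1.21 to 4.87 in HdR. The part of the melanocyte and differentiation differences in the results below was not tested, and in these bulk samples fewer cells of a type and less RNA per cell cannot be told apart.

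The family split by member. In HdR 4 of the 10 genes were higher (Rel, Nfkb2, Nfkbia and Nfkbiz), 3 were lower (Rela, Relb and Bcl3) and 3 were not called (Nfkb1, Nfkbib and Nfkbie) at a limma adjusted p under 0.05. Over all tested genes 45.1% were called, 21.4% higher and 23.6% lower, so a call by itself is common here. Of all calls 47.6% were higher, and 57.7% with upper-quartile scaling. WT and HdR values were fully separate for the same 7 members, against 41.2% of all tested genes. Among the subunits 2 were higher and 2 lower with a median log2 fold change of 0.05, and among the IκB-type genes 2 were higher and 1 lower with a median of 0.12, beside a median of -0.01 over all tested genes. When the difference was tested against a fold of 1.2, Nfkbia and Nfkbiz were called and the other 8 were not, where 7.47% of all tested genes were. The plots of levels by library and of differences with their intervals show these values.

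**Figure D1:**
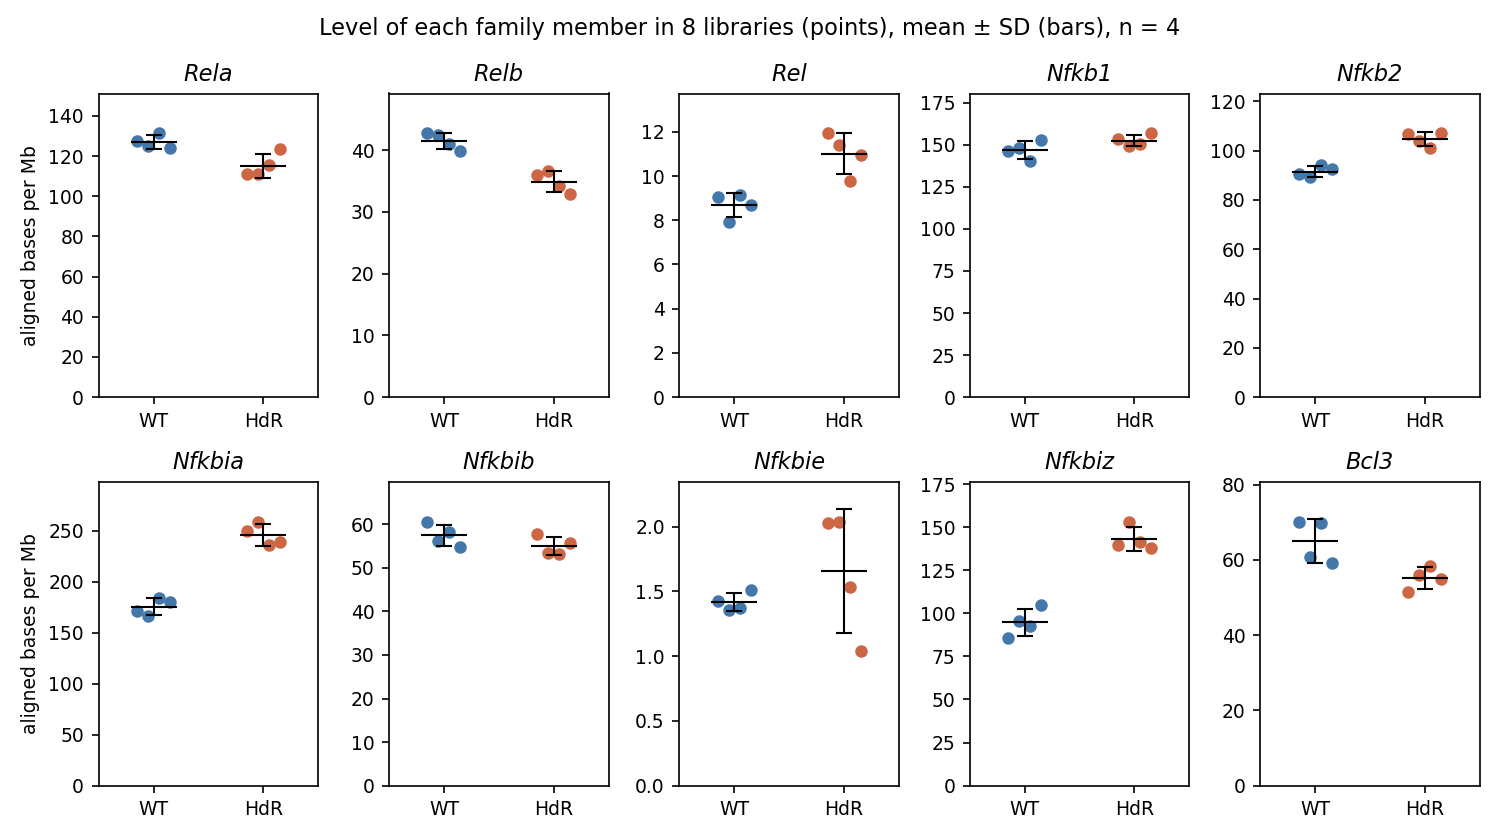
Level of each of the 10 genes in every library, in aligned bases per Mb (vertical axis from 0, its scale set for each gene), with WT points in blue and HdR points in orange and bars for the mean ± SD of 4 libraries. Nfkbia and Nfkbiz stand clearly higher in HdR, while the Nfkbie points of HdR spread from 1.04 to 2.04.

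**Figure D2:**
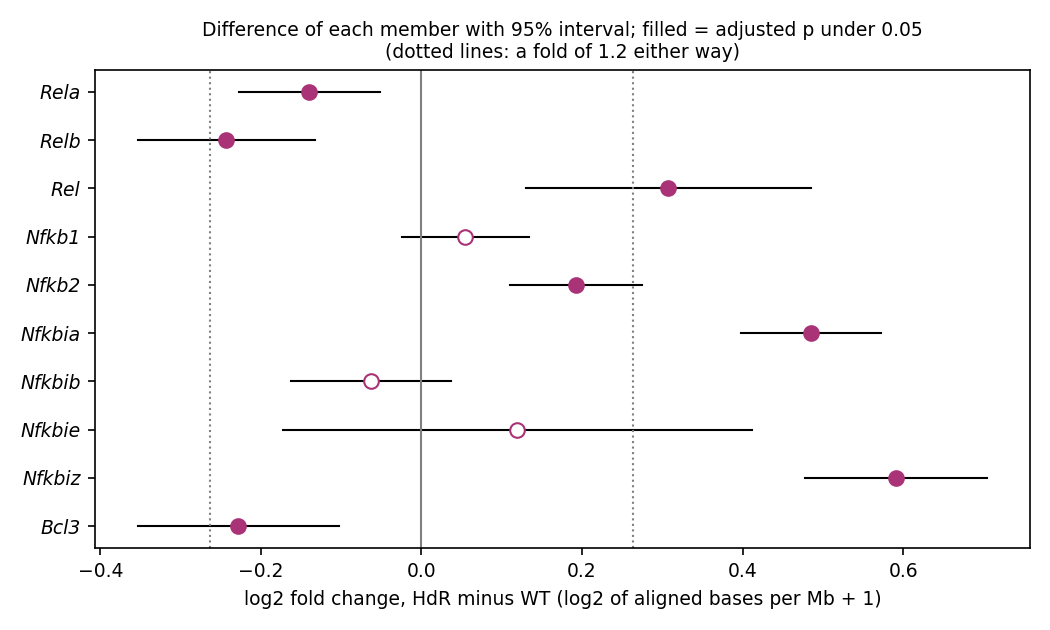
Difference of each gene between genotypes as a log2 fold change, HdR minus WT (horizontal axis), with the 95% interval from limma as a line and filled points for an adjusted p under 0.05. The points run from -0.24 for Relb to 0.59 for Nfkbiz, and the dotted lines mark a fold of 1.2 in each direction.

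Among the subunits, Rela encodes p65, the main transactivating subunit of the canonical pathway (GRCm38 chromosome 19, 5637483 to 5648130, plus strand). Its level was 128, 125, 131 and 124 in WT and 111, 111, 116 and 123 aligned bases per Mb in HdR. The groups did not overlap, but HdR 4, the shallowest library, came within 1 unit of WT 4. Rela fell by 0.14 ± 0.042 on the log2 scale (SE, limma adjusted p = 0.0114) (a mean change of -9.23%). This was the smallest of the called differences in the family, and with upper-quartile scaling it was -0.10 and no longer called (adjusted p = 0.0594).

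Relb encodes the partner of p52 in the noncanonical pathway and is itself a known NF-κB target (chromosome 7, 19606217 to 19629438, minus strand). Relb stood at 42.8, 42.4, 41.0 and 39.8 in WT and at 36.0, 36.7, 34.1 and 32.9 aligned bases per Mb in HdR. Every HdR library was below every WT library. The log2 fold change was -0.24 ± 0.052 (SE, adjusted p = 0.00113).

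Rel encodes c-Rel, a subunit best known from lymphocytes (chromosome 11, 23736847 to 23770970, minus strand). WT libraries had 9.04, 7.91, 9.13 and 8.69 aligned bases per Mb and HdR libraries 11.9, 11.4, 9.75 and 10.9. All HdR values lay above all WT values, with HdR 3 the closest. Rel rose by 0.31 ± 0.084 on the log2 scale (SE, adjusted p = 0.0067). This was a rise at a low level, resting on 84.2 to 172 read-pair equivalents a library, where a read-pair equivalent is 302 aligned bases. Most leukocyte markers, given above, were at or near 0 in these libraries. Itgam, the only tested marker of that list, was lower in HdR (log2 fold change -0.46, limma adjusted p = 0.00626). The part of leukocytes in the Rel values was not tested.

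Nfkb1 encodes p105, the precursor of p50 (chromosome 3, 135584655 to 135691547, minus strand). The values were 146, 148, 140 and 153 in WT and 153, 149, 150 and 157 in HdR, and the groups overlapped. Nfkb1 had a log2 fold change of 0.05 with a 95% interval of -0.02 to 0.13 (limma adjusted p = 0.247). That interval leaves out a rise of 1.2-fold, while a small rise or a slight fall remain within it.

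Nfkb2 encodes p100, which is cut to p52 and, uncut, restrains RelB (chromosome 19, 46304320 to 46312385, plus strand). Its level was 90.4, 89.1, 94.1 and 92.5 in WT and 107, 104, 101 and 107 aligned bases per Mb in HdR. The groups were apart, and the log2 fold change was 0.19 ± 0.039 (SE, adjusted p = 0.000659). Of its merged exon bases 18.1% are shared with genes on the opposite strand, the protein-coding gene Psd and a noncoding gene, and the strand setting of the counting is not given in the sources used here. Psd was at 3.61 to 4.65 in WT and 2.995 to 3.79 in HdR and was not called (adjusted p = 0.133).

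Among the inhibitors, Nfkbia encodes IκBα, the fast-resynthesised inhibitor of canonical dimers and a classic NF-κB target (chromosome 12, 55489410 to 55492647, minus strand). Nfkbia had 171, 166, 184 and 181 aligned bases per Mb in WT and 250, 259, 236 and 240 in HdR. The lowest HdR library was well above the highest WT library. Nfkbia rose by 0.49 ± 0.041 on the log2 scale (SE, adjusted p = 9.35e-08), a mean 40.2% above WT, and it also passed the test against a fold of 1.2 (adjusted p = 0.000808). Its absolute log2 fold change was at percentile 90.9 of all tested genes.

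The other classical IκB genes did not pass the test. Nfkbib, which encodes IκBβ (chromosome 7, 28758251 to 28767512, minus strand), was at 60.6, 56.3, 58.1 and 54.9 in WT and 57.7, 53.4, 53.2 and 55.6 in HdR. The groups overlapped, and the log2 fold change of -0.06 had a 95% interval of -0.16 to 0.04 (adjusted p = 0.297). Of the Nfkbib exon bases 16.4% overlap Sirt2 and Ccer2 on the opposite strand. Sirt2 was at 57.1 to 62.7 in WT and 51.8 to 59.1 in HdR, and reads of both genes could be mixed in the shared part.

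Nfkbie encodes IκBε (chromosome 17, 45555703 to 45563169, plus strand) and was barely detected. Its level was 1.43, 1.36, 1.37 and 1.51 in WT and 2.03, 2.04, 1.53 and 1.04 aligned bases per Mb in HdR. HdR 1 and HdR 2 were the highest and HdR 4 the lowest of all 8, at 7.97 read-pair equivalents. The log2 fold change of 0.12 had a wide interval of -0.17 to 0.41 (adjusted p = 0.509), so neither a fall nor a rise within it could be told from no change.

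The nuclear cofactors went in opposite directions. Nfkbiz (chromosome 16, 55811375 to 55838899, minus strand) had 85.9, 95.5, 92.6 and 105 aligned bases per Mb in WT and 140, 153, 141 and 138 in HdR. WT 4 was the highest WT library and still lay far under the HdR libraries. Nfkbiz rose by 0.59 ± 0.054 on the log2 scale (SE, adjusted p = 2.98e-07), a mean 50.9% above WT, the largest change in the family in either direction. Against a fold of 1.2 its adjusted p was 0.00028.

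Bcl3 encodes a cofactor that binds p50 and p52 dimers (chromosome 7, 19808462 to 19822770, minus strand). Bcl3 had 70.2, 60.9, 69.7 and 59.1 aligned bases per Mb in WT and 51.4, 56.0, 58.4 and 55.0 in HdR. The WT values fell into a higher and a lower pair, and the lowest of them, WT 4, came within 1 unit of HdR 3. The log2 fold change was -0.23 ± 0.059 (SE, adjusted p = 0.00491). A noncoding antisense gene covers 6.51% of its exon bases.

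Relb and Bcl3, both lower in HdR, are separated by 179 kb of chromosome 7, a shared position noticed after their values were seen. Of 10 genes with a row between them 7 were tested. Among these, 4 were lower (Apoc1, Apoe, Nectin2 and Cblc), 1 was higher (Tomm40) and 2 were not called (Bcam and Clptm1). Over all tested genes 23.6% were lower and 21.4% higher. The median log2 fold change of the 7 genes was -0.18, beside -0.01 for all tested genes. Apoe, the apolipoprotein gene, went from a mean of 78.9 to 54.5 aligned bases per Mb, and Tomm40, a mitochondrial import gene, from 168 to 201. Genes of the stretch therefore differed in both directions.

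Divided by length, the family covered a wide range of levels in WT. Per kb of merged exon, WT levels in aligned bases per Mb per kb were 109 ± 5.16 for Nfkbia, 41.3 ± 1.10 for Rela, 26.5 ± 1.14 for Nfkbib, 26.2 ± 2.34 for Bcl3, 19.96 ± 0.479 for Nfkb2 and 18.9 ± 1.57 for Nfkbiz (SD, n = 4). Below them were Nfkb1 at 12.2 ± 0.438, Relb at 10.7 ± 0.349, Rel at 1.16 ± 0.0746 and Nfkbie at 0.465 ± 0.0227. Nfkbib and Bcl3, and Nfkb2 and Nfkbiz, did not separate beyond the spread of the WT libraries, and all other neighbours in this order did. The inhibitor IκBα thus had the most abundant transcript of the family in both genotypes, and c-Rel and IκBε had the scarcest.

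The order depended on the length used for Nfkb1. Its annotated exons merge to 12061 bases, while its longest transcript has 4149, and per kb of the longest transcript its WT level was 35.4, the third highest in place of the seventh. Nfkbia, Rela, Bcl3, Relb, Rel and Nfkbie kept their WT places under both lengths. In HdR the levels per kb of merged exon were 153 ± 6.54 for Nfkbia, 37.5 ± 1.91 for Rela and 28.5 ± 1.38 for Nfkbiz (SD, n = 4). Nfkbiz thereby moved from the sixth to the third place, above Nfkbib at 25.3 ± 0.976, Nfkb2 at 22.8 ± 0.637 and Bcl3 at 22.3 ± 1.17, with the 4 Nfkbiz values above all 4 of each. Per kb of the longest transcript Nfkbiz was at 23.0 in WT and 34.7 in HdR, where Nfkb1 was at 36.8. The remaining HdR levels were 12.6 ± 0.282 for Nfkb1, 8.99 ± 0.45 for Relb, 1.47 ± 0.124 for Rel and 0.545 ± 0.157 for Nfkbie, and Nfkb2 and Bcl3 overlapped.

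**Figure D3:**
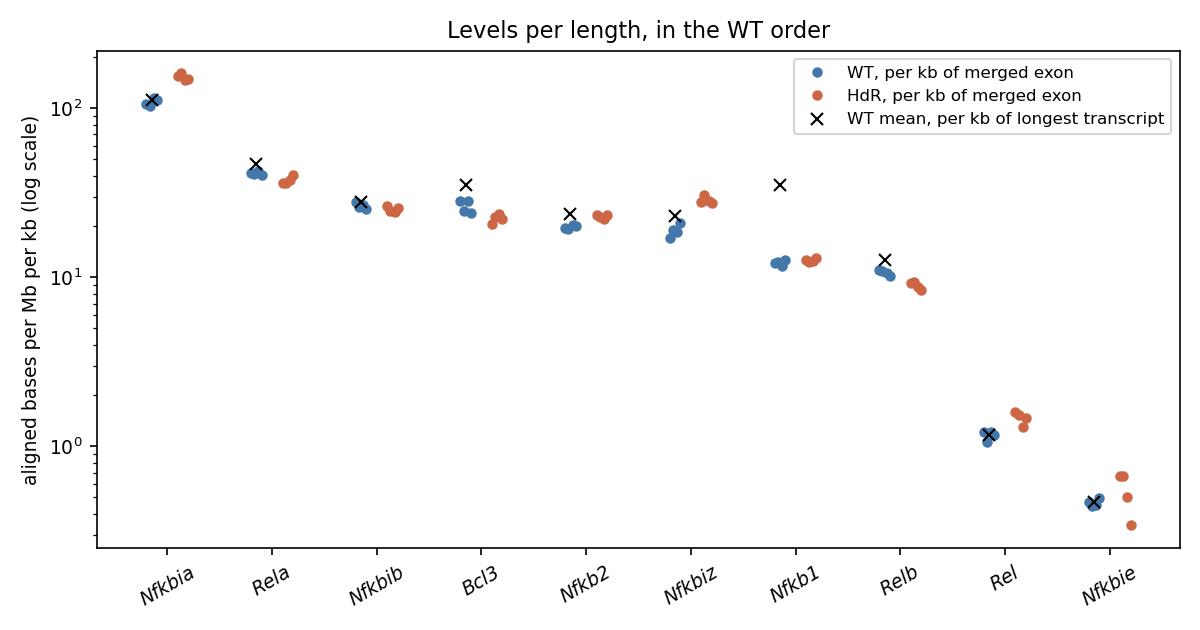
Level of each gene per kb of merged exon in every library (log scale), ordered by the WT mean, with WT in blue and HdR in orange and a cross for the WT mean per kb of the longest transcript. Nfkbia is the highest and Nfkbie the lowest, and Nfkb1 is the gene whose place moves most with the length used.

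Ratios between members within a library do not depend on the depth scaling and are given as a description with no test. The summed level per kb of Nfkbia, Nfkbib and Nfkbie over that of the 5 subunits was 1.57, 1.54, 1.63 and 1.63 in WT and 2.20, 2.27, 2.09 and 2.02 in HdR. Every HdR library was above every WT library, and of the 3 inhibitor genes, Nfkbia makes up most of their sum and is the only one that was called. With the longest transcript as length the mean ratio was 1.17 in WT and 1.55 in HdR. The ratio of Nfkbia to Rela was 2.56, 2.54, 2.67 and 2.78 in WT and 4.29, 4.46, 3.89 and 3.71 in HdR. The ratio of Nfkbiz to Bcl3 was 0.604, 0.773, 0.655 and 0.876 in WT and 1.34, 1.35, 1.19 and 1.24 in HdR, so the cofactor with the more abundant transcript was Bcl3 in all 4 WT libraries and Nfkbiz in all 4 HdR libraries. This crossing held with both lengths.

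Rel over Rela was 0.0282 ± 0.00142 in WT and 0.0394 ± 0.00455 in HdR (SD, n = 4), with no overlap. Relb over Rela was 0.259 ± 0.0101 in WT and 0.241 ± 0.0234 in HdR, and the libraries overlapped. Nfkb2 over Nfkb1 was 1.64 ± 0.0852 in WT and 1.81 ± 0.0329 in HdR, where only WT 3 at 1.77 reached the HdR range. With the longest transcript these means were 0.673 and 0.741, so which of the precursor transcripts is more abundant depends on the length.

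**Figure D4:**
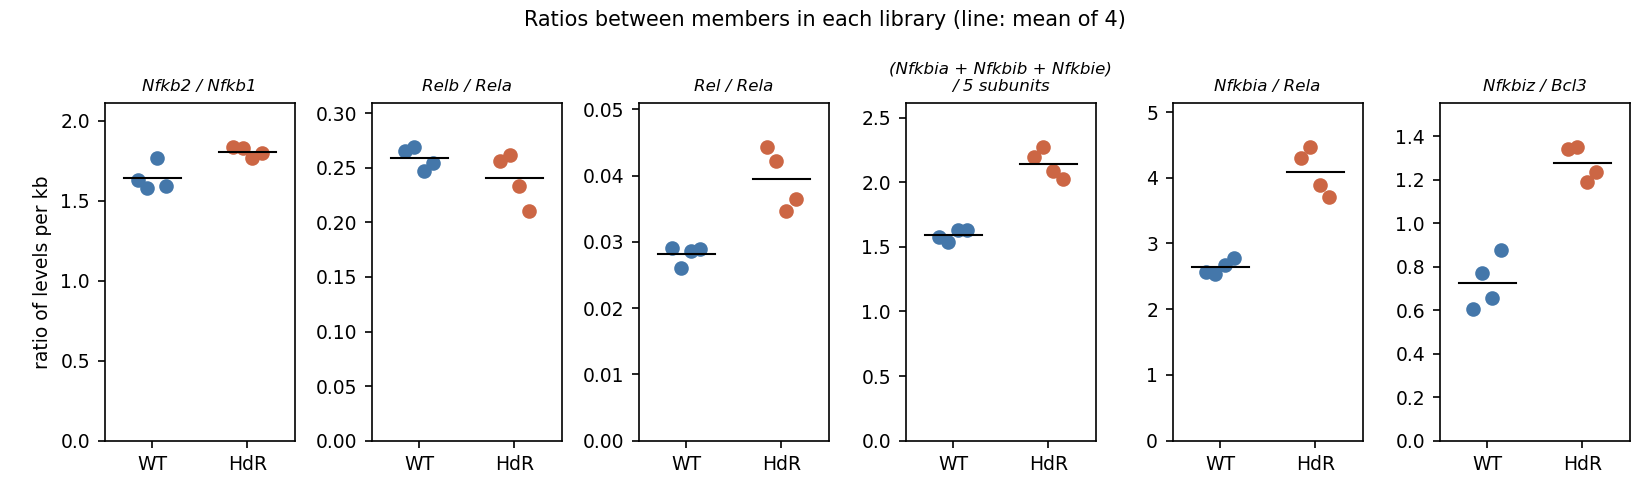
Ratio of levels per kb of merged exon between members in each library (vertical axes from 0), WT in blue and HdR in orange, with a line at the mean of 4. The ratios of inhibitors to subunits, of Nfkbia to Rela, of Rel to Rela and of Nfkbiz to Bcl3 do not overlap between genotypes, and those of Relb to Rela and of Nfkb2 to Nfkb1 do.

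Transcripts with a pattern over the 8 libraries most like that of a called member were found by the root mean square difference of log2 levels, each taken relative to its WT mean. The search covered 8616 genes with a mean of at least 10, and predicted genes (Gm and Rik symbols) were left out. For Nfkbia these were Pttg1ip (0.030), the cytokine gene Il24 (0.038) and Prdx3 (0.040). For Nfkbiz they were Rbm19 (0.062), the cyclin D1 gene Ccnd1 (0.068) and Swap70 (0.070). Nfkb2 was nearest to Polr3d (0.022), Sf3b2 (0.022) and Ddost (0.023), and Rel to Wipi1 (0.048), Alas1 (0.052) and Tsn (0.054). For the lower genes, Rela was nearest to Lrp10 (0.027), Emc2 (0.032) and Rnf214 (0.034), Relb to Atxn7l3 (0.029), Prn (0.030) and Tmem9b (0.031), and Bcl3 to Alg14 (0.038), Cxxc1 (0.045) and Snx15 (0.052). No called member was among the 3 nearest of another, but Rel, with a mean under 10, was not among the genes searched. The neighbours found had log2 fold changes close to that of their member. Those of the higher members differed (0.19 for Nfkb2, 0.31 for Rel, 0.49 for Nfkbia and 0.59 for Nfkbiz). Their absence from each other's neighbours was therefore largely set by the measure, and no conclusion is drawn from it.

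The rest of the pathway was read from lists of its parts. Outside the family 92 genes were listed, 80 were tested, and 22 were higher and 18 lower in HdR. This was a share of 50% called, beside 45.1% of all tested genes, 21.4% higher and 23.6% lower. The counts of each list below stand beside these shares. Upstream of the IκBs most transcripts were not called. Of 9 IKK and TAK1 kinase genes 2 were higher and 1 lower (median 0.01). Ikbke, an IKK-related kinase gene, rose from 56.8 ± 1.99 to 73.0 ± 2.85 and the TAK1 gene Map3k7 from 82.4 ± 3.22 to 91.1 ± 2.74 aligned bases per Mb, while the TAK1-binding gene Tab2 fell from 110 ± 7.09 to 95.3 ± 4.19 (SD, n = 4). The genes of the IKK core had log2 fold changes of -0.07 (Chuk), -0.06 (Ikbkb) and 0.01 (Ikbkg), with limma adjusted p of 0.315 to 0.854.

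At the TNF receptor none of 10 genes was higher and 2 were lower, Rbck1 (-0.99 ± 0.046) and the receptor gene Tnfrsf1a (-0.39 ± 0.041, log2, SE), with a list median of -0.12. Rbck1 is the altered gene itself and is also among the 18 lower pathway genes. The list had 3 lower genes with limma-voom, without HdR 2 or without HdR 3. Of 5 noncanonical genes 1 was higher, Traf3 (0.36 ± 0.053), which encodes the adaptor that keeps NIK low, and none was lower. The NIK gene Map3k14 itself was at 10.9 ± 0.957 in WT and 10.6 ± 2.36 in HdR (SD, n = 4, adjusted p = 0.742). None of 6 tested genes of the ubiquitin ligase that marks IκBs was called, but 4 were higher with upper-quartile scaling, 3 with library totals and 1 without WT 3. The IκB-like genes Nfkbid (0.25 ± 0.14) and Nfkbil1 (-0.09 ± 0.081) were not called, and Nfkbid was called without HdR 4 (0.36, adjusted p = 0.0438). Of 9 cofactors and modifying enzymes of p65, 2 were higher, Hdac1 (0.13 ± 0.037) and Rps6ka5 (0.28 ± 0.11, adjusted p = 0.0498), and 1 was lower, the acetyltransferase gene Ep300 (-0.17 ± 0.055, adjusted p = 0.0186). The call of Ep300 was lost without WT 2 (adjusted p = 0.0644) or HdR 2 (0.0678), without WT 4 and HdR 4 together (0.0705), with the replicate number as a block (0.0545), with upper-quartile scaling (0.0578), with library totals (0.0637) and with no filter (0.0581). That of Rps6ka5 was lost without WT 1, WT 2, WT 3, HdR 1, HdR 3 or HdR 4 (0.0508 to 0.175), without WT 4 and HdR 4 together (0.0864), with limma-voom (0.0603), with a pseudocount of 0.1 (0.0515) and with no filter (0.101).

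Of 13 feedback regulators 3 were higher and 7 lower (median -0.20), beside 21.4% higher and 23.6% lower of all tested genes. The number lower was 5 with upper-quartile scaling and 2 against a fold of 1.2. It was 8 with limma-voom, a pseudocount of 0.1 or the filter of 5 in 4 libraries. Higher were Tnfaip3, which encodes A20, its partner gene Tnip1 (0.26 ± 0.055) and Tnip3. Tnip3 was at 0.216 ± 0.0791 in WT and 1.87 ± 0.297 in HdR (SD, n = 4), so it reached the minimum mean level only through HdR, and the list had 2 higher genes when any HdR library was left out or with the filter of 5 in 4 libraries, and 4 with upper-quartile scaling or library totals. Lower were Spata2 (-1.13 ± 0.24), Pdlim2, a nuclear ligase gene that ends p65 activity (-0.92 ± 0.081), Optn (-0.58 ± 0.074), Commd1, Rnf11, Cyld and Tnip2. Spata2 fell most, but its HdR values were uneven, at 14.4, 27.9, 14.1 and 13.0, with HdR 2 far above the others. Among NF-κB target genes, 14 of 23 tested were higher and 4 lower, with a median of 0.43. Of the 31 listed, 8 were below the minimum level, and Csf3 (0.775 ± 0.281 in WT, 4.77 ± 0.247 in HdR) reached it only through HdR. With the filter of 5 in 4 libraries 11 were higher. The 4 genes of the list with the smallest p were all higher, Csf3 among them. Tnfaip3 went from 29.95 ± 3.87 in WT to 104.53 ± 8.07 aligned bases per Mb in HdR (SD, n = 4). Ccl2 went from 6.89 ± 0.94 to 19.47 ± 2.64 and Cxcl5 from 5.74 ± 0.91 to 16.19 ± 1.51. The largest differences of the list were falls, in the acute-phase gene Saa3 (48.5 ± 9.87 to 5.85 ± 0.546) and in Lcn2 (46.7 ± 8.27 to 9.27 ± 0.902), which encodes an iron-sequestering antimicrobial protein. Also lower were Sod2 (115 ± 5.69 to 98.2 ± 1.58) and Ccl20 (17.3 ± 3.14 to 12.6 ± 1.71, SD, n = 4). The cell adhesion gene Icam1 was at 105 ± 6.67 in WT and 152 ± 4.83 in HdR (SD, n = 4), and the chemokine gene Cxcl2 at 14.7 ± 2.45 and 44.5 ± 5.55. Birc3, another classic target, was at 26.1 ± 1.63 and 24.3 ± 1.04 (limma adjusted p = 0.199). Icam1, Cxcl2 and Birc3 lie outside the rule for named genes and were picked after their values were seen.

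Genes known to depend on IκBζ, the Nfkbiz product, went both ways. Of 14 listed 10 were tested, and 3 were higher and 6 lower in HdR, beside 21.4% higher and 23.6% lower of all tested genes. The list median of the log2 fold change was -0.71, beside 0.59 for Nfkbiz. Higher were Csf3, Cxcl5 and Zc3h12a, and 2 genes with the filter of 5 in 4 libraries, which leaves out Csf3. Lower were Lcn2, Saa3, Ccl20, the defensin gene Defb4 (3.94 ± 1.32 in WT, 1.24 ± 0.398 in HdR) and the calprotectin genes S100a8 (992 ± 136 and 490 ± 60.6) and S100a9 (1237 ± 222 and 583 ± 80.4, aligned bases per Mb, SD, n = 4). This list shares 7 genes with the NF-κB targets, 50% of its 14 and 22.6% of their 31. The lower levels of the differentiation keratins in HdR, given above, stand beside these values, and their part was not tested.

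**Figure D5:**
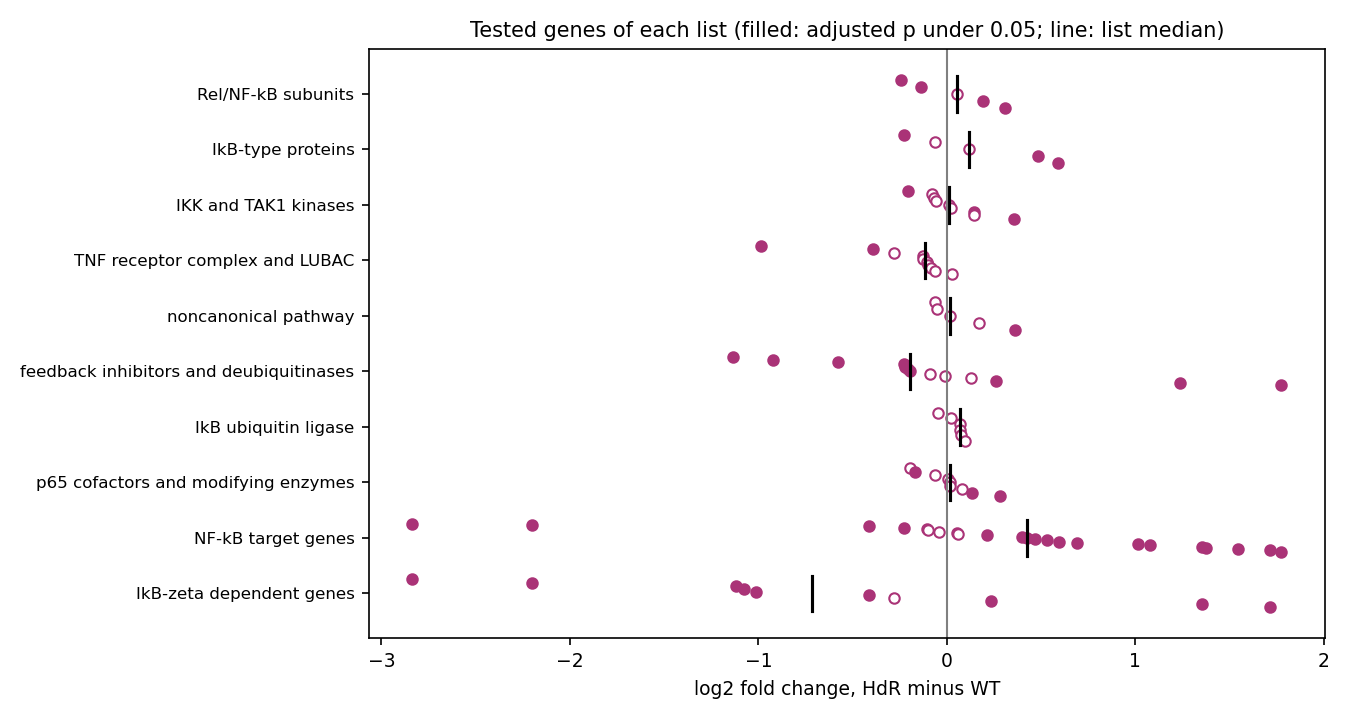
Log2 fold change of every tested gene in each list, HdR minus WT (horizontal axis), with filled points for a limma adjusted p under 0.05 and a black line at the list median. The NF-κB target genes have a median of 0.43 and the genes dependent on IκBζ a median of -0.71, while the kinase genes have a median of 0.01, with Ikbke highest at 0.36 and Tab2 lowest at -0.21.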

How the data were processed

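RNA was sequenced from 8 keratinocyte libraries, 4 WT and 4 HdR, with the NEBNext Ultra II RNA kit per the labels' protocols. Per the submitters' processing notes the build was GRCm38; the aligner, counter, annotation and strand setting are not given in the sources used here. The deposited values are signal (coverage): whole-number sums of aligned bases per gene, a unit read from the values. The commonest non-zero value was 302, then 604 and 906, as from read pairs of 151 bases a read, but among low values (under 10 such steps) 16.9% were multiples of it, so no count test was used.

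Each library was scaled by trimmed-mean factors (30% of log ratios and 5% of levels trimmed at each end). Genes with a mean of at least 1 were tested with limma 3.58.1 (trend and robust, statmod 1.5.0, R 4.3.3) on log2(level + 1), two-sided, genotype as the only factor, with Benjamini-Hochberg adjustment over 11870 genes. Lengths and coordinates came from GENCODE (GRCm38). In simulated data for HdR minus WT on 11820 genes, 78.4% of 1.5-fold and 97.9% of 2-fold changes were recovered. The simulation gave 178 calls, of which 3.93% were false. The real data gave 5350 calls, and recovery at that number of calls was not tested. Figures were drawn with matplotlib 3.10.9.

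The members and lists were chosen with earlier results of these data known, and 1 listed gene is not reported here. Named genes are the members, Rbck1, and up to 4 genes a list with the smallest p, with others marked, named to complete a count, or given outside this rule with their values known (Krt5, Krt14, leukocyte markers, Chuk, Ikbkb, Ikbkg, Map3k14, genes overlapping a member and the chromosome 7 genes). Alternatives were other scalings, filters, pseudocounts (0.1 and 5), limma-voom, a replicate block, a test against a fold of 1.2, and each library left out. Leaving out WT 4 and HdR 4 together was added after seeing the data.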

Additional observations from a re-analysis of the deposited data

Results flagged for a closer look

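Outlying libraries were looked for in 41 genes, which were the members, Rbck1 and up to 4 genes a pathway list with the smallest p. Other genes named in the text, Spata2 among them, were not checked. In 82 groups of 4 libraries from the 41 genes, 3 held a library far from the other 3, where chance gives about 1 in 20. None was a member of the family. The highest HdR value of Nfkbil1 was 10.7 aligned bases per Mb in HdR 1, next to 9.51. For Tnip3 the highest WT value was 0.335 in WT 3, next to 0.181. For Cul1, a scaffold gene of the ligase that marks IκBs, the lowest HdR value was 114 in HdR 1, next to 117.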

How the results depend on the processing

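Nfkbia and Nfkbiz kept their direction and their call under all 19 alternatives, with log2 fold changes of 0.46 to 0.52 and 0.55 to 0.66. Relb, Rel, Nfkb2 and Bcl3 lost the call only against a fold of 1.2, and Rela there and with upper-quartile scaling. Nfkb1, Nfkbib and Nfkbie gained no call under any alternative run, and the filter of 5 in 4 libraries left Nfkbie out. Against a fold of 1.2, 2 members were called (2 higher, 0 lower), 19 other pathway genes, and 887 genes in all, 347 higher and 540 lower. Calls over all genes were 2545 higher and 2805 lower, but 3113 and 2278 with upper-quartile scaling (47.6% and 57.7% higher), so the direction of small differences rests on the scaling. With the replicate block 7 members, 40 other pathway genes and 4758 genes in all were called. Same-numbered libraries shared only a number: their deviations correlated at -0.22 to 0.03, and not every library correlated best with its own number. Each library left out in turn gave 7 called members and 37 to 41 other pathway genes. Low coverage limits Nfkbie most.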
